A study of Mus musculus with 4 samples.

Results

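The genes described are 9 regulators of blood clotting and clot dissolution: Thbd, Procr, Pros1, Tfpi, F3, F8, F2r, Plat and Plau. They are followed in cells that the study isolated as brain endothelial cells (ECs). The genes were taken by symbol, without a filter on their values, from the 24873 genes listed in an RNA-Seq table of mouse brain cells. Earlier results of these data were known when the 9 were chosen. All 9 were high enough to be among the 20485 genes tested. The name endothelial anticoagulant and fibrinolytic genes covers 6 of them, namely the protein C genes Thbd, Procr and Pros1, the inhibitor Tfpi, and the plasminogen activators Plat and Plau. F3 and F8 promote clotting, and F2r encodes a receptor for thrombin.

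The cells came from mice that carried a tamoxifen-activated Cre recombinase driven by the VE-cadherin (Cdh5) promoter and Mgp alleles flanked by loxP sites, given in the labels as Cdh5cre;Mgpflox/flox. The control group (No Tamoxifen, 2 libraries) carried the same alleles and received no tamoxifen. The tamoxifen group (Tamoxifen treated, 2 libraries) was injected at 10 weeks of age, with a dose of 75 mg/kg on each of 5 days. The age at the start was 10 weeks in the control group as well, and cells of both groups were isolated on day 9. Each library held cells pooled from 3 mice, and the study used both sexes. The study describes the sequenced cells as CD31+CD45-, whereas the labels call them brain tdTomato+. Since no group received tamoxifen without the floxed alleles, effects of the drug and of the deletion cannot be told apart in these libraries.

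Thrombin is the enzyme that turns fibrinogen into fibrin. Tissue factor starts the reactions that produce it, and the endothelial surface restrains them through tissue factor pathway inhibitor and through thrombomodulin, which lets thrombin activate protein C. Plasminogen activators turn plasminogen into plasmin, the enzyme that dissolves fibrin. The brain is known for abundant tissue factor in astrocytes, and its ECs are a known source of tissue-type plasminogen activator.

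The 4 libraries held between 35387438 and 49799321 reads on genes. Mgp, the targeted gene, had 1094 and 1352 normalized counts in the controls against 945 and 909 after tamoxifen, a log2 fold change of -0.39 that was not called (limma, BH-adjusted p = 0.0986). A normalized count is a read count divided by a factor for the library, and a gene was called at an adjusted p under 0.05 with an absolute log2 fold change over 1. The labelled cell type was checked on 12 endothelial markers, whose summed level was 1214735 to 1258758 normalized counts in the control libraries and 106196 to 211534 in the tamoxifen libraries. All 12 were called lower, with log2 fold changes between -3.43 and -2.75. Ptprc, which encodes the CD45 used to exclude blood cells, rose from 50.7 and 83.9 to 1423 and 1119 normalized counts (log2 fold change 4.25, limma, BH-adjusted p = 4.99e-05). In such bulk libraries, fewer cells of a type and less RNA per cell cannot be told apart.

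Of the 9 genes, 4 were lower (Thbd, Procr, Pros1 and Plat), 3 were higher (F3, F2r and Plau) and 2 were not called (Tfpi and F8) in the tamoxifen libraries. The background was high in both directions, with 16.0% of the tested genes called lower and 28.6% called higher. Higher calls were thus 64.1% of all calls, a split that moved to 79.7% when the libraries were scaled to equal totals and to 47.2% with quantile normalization. For 5 of the 9 genes the tamoxifen libraries were both lower than either control, which was so for 39.2% of all tested genes, and for the other 4 both lay above, which was so for 43.1%. The median log2 fold change over the 9 genes was -0.19, beside 0.05 over all tested genes. These counts over 9 genes are a description, and the values of the single genes follow.

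**Figure D1:**
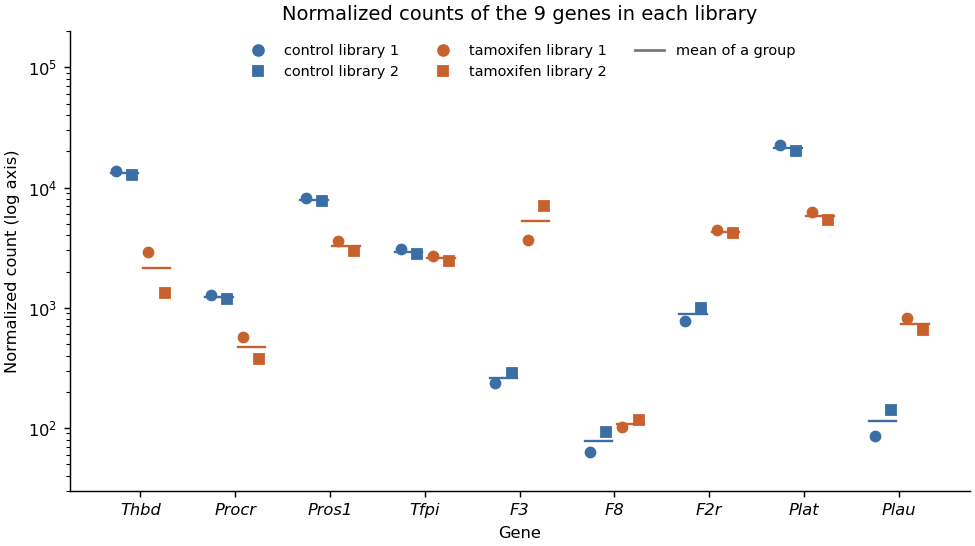
Normalized counts of the 9 genes (log axis) in each of the 2 control and 2 tamoxifen libraries, with a point for each library and a bar for the mean of each group. Thbd, Procr, Pros1, Plat and Tfpi lie lower in both tamoxifen libraries, and F3, F2r, Plau and F8 lie higher in both.

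**Figure D2:**
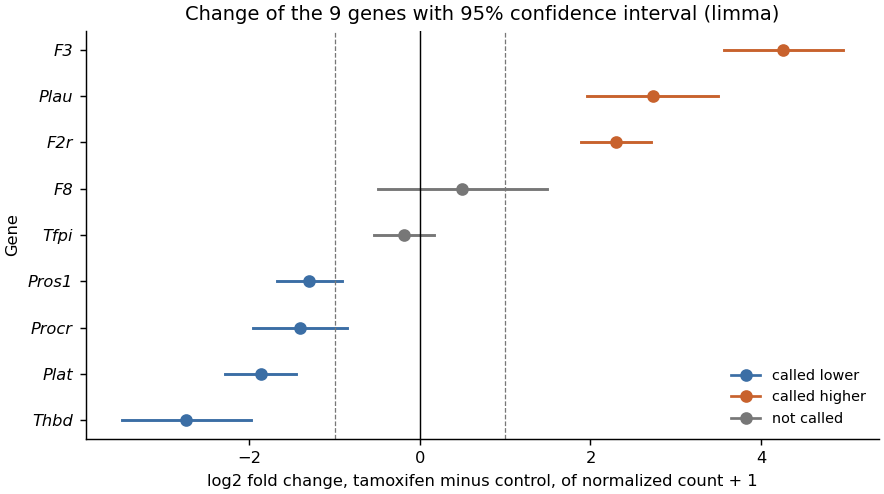
Log2 fold change of each gene, tamoxifen minus control, on log2(normalized count + 1), with 95% confidence intervals from limma and dashed lines at the size limit of a call. The values run from -2.74 for Thbd to 4.26 for F3, and the intervals of Tfpi and F8 cross 0.

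The 3 chosen genes of the protein C pathway were all called lower, beside 16.0% of all tested genes. They are not the whole pathway: of the related genes given below, Gas6 was not called and Proc was too low to be tested. Thbd encodes thrombomodulin, the surface receptor that turns thrombin from a clotting enzyme into the activator of protein C. It had 13695 and 12784 normalized counts in control libraries 1 and 2, and 2936 and 1339 in tamoxifen libraries 1 and 2. The mean fell 6.19-fold, from 13239 ± 644 to 2137 ± 1130 (SD, n = 2), for a log2 fold change of -2.74 (95% confidence interval -3.50 to -1.98, limma, BH-adjusted p = 0.000282). Both tamoxifen libraries were far below the controls, and they also differed from each other more than the controls did. In GRCm39 the gene spans chr2:148216045-148250201 on the minus strand, where the annotation places Sstr4 on the opposite strand.

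Procr encodes the endothelial protein C receptor, which holds protein C at the cell surface near thrombomodulin. It had 1267 and 1182 normalized counts in the controls against 566 and 375 after tamoxifen. The mean was 2.60-fold lower, with a log2 fold change of -1.41 (95% confidence interval -1.96 to -0.86, limma, BH-adjusted p = 0.00153). The groups did not overlap, and tamoxifen library 2 was again the lowest. Procr spans chr2:155593031-155597397 on the plus strand.

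Pros1 encodes protein S, the cofactor of activated protein C and also of tissue factor pathway inhibitor. Its values were 8212 and 7691 in the controls against 3562 and 2943 after tamoxifen, in normalized counts. They gave a 2.44-fold lower mean and a log2 fold change of -1.30 (SE 0.16, limma, BH-adjusted p = 0.000379). The groups were well apart, and the tamoxifen libraries were closer to each other than for Thbd. Pros1 spans chr16:62674275-62749710 on the plus strand, where it overlaps a noncoding gene of the other strand. Scaling the libraries to equal totals left the adjusted p of Procr and Pros1 under the threshold but brought their log2 fold changes to -0.94 and -0.82, inside the size limit, and quantile normalization did so for Pros1 alone (-0.95).

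Divided by transcript length, Thbd stood above Pros1 in both control libraries and below it in both tamoxifen libraries, and Procr was the lowest of the 3 in every library. In normalized counts per kilobase of the longest transcript, the level of Thbd was 3.40 times that of Procr in both control libraries. This ratio was 1.63 and 1.12 in the tamoxifen libraries. The ratio of Pros1 to Procr per kilobase was 2.81 and 2.83 in the controls against 2.73 and 3.41 after tamoxifen, so that these groups overlapped.

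Of the pair of genes that govern the initiation of clotting, F3 rose and Tfpi was not called. F3 encodes tissue factor, the membrane protein that starts coagulation by binding factor VII. The controls held 237 and 288 normalized counts of it, from 173 and 230 reads, and the tamoxifen libraries 3627 and 6960.4, from 3347 and 9682 reads. The mean rose 20.2-fold, and the log2 fold change was 4.26 (95% confidence interval 3.57 to 4.95, limma, BH-adjusted p = 3.59e-05). Both tamoxifen libraries were far above the controls, and tamoxifen library 2 was 1.92 times as high as tamoxifen library 1. F3 lies at chr3:121516610-121528820 on the plus strand.

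Tfpi encodes tissue factor pathway inhibitor, which blocks the complex of tissue factor and factor VIIa together with factor Xa. Its normalized counts were 3055 and 2805 in the controls against 2687 and 2456 after tamoxifen. Both tamoxifen libraries were below the controls, but the gap between the groups was smaller than the spread within either. The gene spans chr2:84263195-84307164 on the minus strand. The log2 fold change of -0.19 (95% confidence interval -0.54 to 0.16) was not called (limma, BH-adjusted p = 0.313), and its sign turned to 0.28 when the libraries were scaled to equal totals.

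Divided by transcript length, the level of F3 was 0.142 and 0.189 times that of Tfpi in the control libraries. The same ratio was 2.48 and 5.20 in the tamoxifen libraries, so that the order of the initiator and its inhibitor turned. With the canonical transcript in place of the longest, the ratio went from 0.0833 and 0.110 to 1.45 and 3.04.

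F8 encodes factor VIII, a plasma cofactor that speeds the activation of factor X and is made by ECs of some organs. It was the lowest of the 9 genes per kilobase, at 63.0 and 92.6 normalized counts in the controls against 101 and 116 after tamoxifen, from between 46 and 162 reads. Both tamoxifen libraries were above the controls by a margin smaller than the gap between the controls. The log2 fold change of 0.50 (95% confidence interval -0.49 to 1.49) was not called (limma, BH-adjusted p = 0.339), and quantile normalization turned it to -0.66. The interval spans changes in both directions, so that no difference was detectable at this depth. F8 spans chrX:74216321-74426221 on the minus strand and overlaps Fundc2.

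F2r encodes PAR1, the receptor that thrombin activates by cutting its outer end. Its normalized counts were 774 and 990.0 in the controls against 4461 and 4154 after tamoxifen. The mean was 4.88-fold higher, and the log2 fold change was 2.30 (SE 0.18, limma, BH-adjusted p = 4.93e-05). The tamoxifen libraries were close to each other and far above both controls. F2r spans chr13:95737382-95755177 on the minus strand. Per kilobase, the level of thrombomodulin mRNA was 15.4 and 11.2 times that of F2r in the control libraries and 0.571 and 0.280 times in the tamoxifen libraries. Of these mRNAs for membrane proteins that bind thrombin, the more abundant was Thbd in both control libraries and F2r in both tamoxifen libraries.

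The promoters of F3, F2r and Procr are shown because they hold the AP-1 motif, and because F3 and F2r rose while Procr fell. Of the 9 genes, 6 had a promoter in the RefSeq table (GRCm38.p6), with 7 promoters in all since Tfpi has a pair, and Thbd, Plat and Plau had none there. Each sequence runs from 250 bases before to 50 bases after the start site in that table, and its place in GRCm39 was found by an exact match. These start sites differ from the starts of the gene spans given above, and the F3 sequence lies wholly inside the span of F3. The capitals mark TGANTCA, the letters of the AP-1 motif, which was searched on both strands.
F3, chr3:121516936-121517235, plus strand: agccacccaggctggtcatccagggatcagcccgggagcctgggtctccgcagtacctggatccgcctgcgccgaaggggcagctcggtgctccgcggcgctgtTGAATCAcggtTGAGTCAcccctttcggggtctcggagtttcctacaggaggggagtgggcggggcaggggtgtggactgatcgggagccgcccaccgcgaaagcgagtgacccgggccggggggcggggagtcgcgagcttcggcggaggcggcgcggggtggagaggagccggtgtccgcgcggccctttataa
F2r, chr13:95754925-95755224, minus strand: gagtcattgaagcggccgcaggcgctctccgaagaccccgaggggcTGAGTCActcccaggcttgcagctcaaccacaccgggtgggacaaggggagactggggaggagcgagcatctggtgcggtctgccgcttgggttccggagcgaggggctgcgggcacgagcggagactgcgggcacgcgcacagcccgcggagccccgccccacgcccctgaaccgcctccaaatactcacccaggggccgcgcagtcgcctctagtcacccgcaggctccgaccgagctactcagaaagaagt
Procr, chr2:155592887-155593186, plus strand: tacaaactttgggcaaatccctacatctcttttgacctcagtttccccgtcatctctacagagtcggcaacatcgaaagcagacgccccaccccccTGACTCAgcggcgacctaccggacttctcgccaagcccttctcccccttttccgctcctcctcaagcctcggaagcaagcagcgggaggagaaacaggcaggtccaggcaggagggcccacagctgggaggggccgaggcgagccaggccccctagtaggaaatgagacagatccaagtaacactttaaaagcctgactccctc
The first bases of the AP-1 matches lie at -146 and -135 in F3, at -204 in F2r and at -154 in Procr, counted from -1 just before the RefSeq start site. Of all 32851 promoters of 300 bases in the table, 7.81% hold TGANTCA. The promoters of Pros1, F8 and Tfpi hold none, and the match is a description of letters with no binding measured.

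The other letters searched were AGGAAG for ETS factors, CACCC for KLF factors and ACAAT for SOX factors, each on both strands. All 300-base promoters held these at 35.4%, 57.5% and 31.02%. CACCC was in the promoters of F3, F2r, Procr, Pros1 and Tfpi, and in F3 the match at -130 overlapped the AP-1 match at -135. AGGAAG was found in both Tfpi promoters alone, and ACAAT in those of Tfpi and F8. None of the 4 motifs was held only by the promoters of genes that rose or only by those of genes that fell.

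The plasminogen activators moved in opposite directions. Plat encodes tissue-type plasminogen activator, which acts mainly on fibrin and has further roles in the brain. It was the highest of the 9 genes per kilobase in the control libraries, and had 22640.3 and 19999 normalized counts there, beside 6310 and 5402 in the tamoxifen libraries. The mean was 3.64-fold lower, with a log2 fold change of -1.87 (95% confidence interval -2.28 to -1.45, limma, BH-adjusted p = 0.000116). Both tamoxifen libraries were far below both controls, and they lay close to each other. Plat spans chr8:23247709-23272871 on the plus strand.

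Plau encodes urokinase-type plasminogen activator, which acts mainly on cell surfaces through its receptor. Its normalized counts were 84.9 and 141 in the control libraries, from 62 and 113 reads, and 828 and 650 in the tamoxifen libraries, from 764 and 904 reads. The mean was 6.53-fold higher, and the log2 fold change was 2.73 (95% confidence interval 1.96 to 3.50, limma, BH-adjusted p = 0.000300). Plau spans chr14:20886722-20893453 on the plus strand. The groups were far apart, but the call needed both tamoxifen libraries. Without tamoxifen library 1 the log2 fold change was 2.56 (limma, BH-adjusted p = 0.0682), and without tamoxifen library 2 it was 2.91 (limma, BH-adjusted p = 0.0612).

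Per kilobase of transcript, the level of Plat was 162 and 86.1 times that of Plau in the control libraries and 4.64 and 5.06 times in the tamoxifen libraries. Plat thus remained the more abundant activator in all 4 libraries, by a smaller margin after tamoxifen.

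The order of the 9 genes per kilobase of the longest transcript differed between the groups. In the control libraries it ran from Plat (mean 5275 normalized counts per kilobase) through Thbd (2585), Pros1 (2146), Procr (761), Tfpi (729), F2r (198), F3 (120) and Plau (46.0) to F8 (7.95), and the pair of Procr and Tfpi was the only neighbouring one whose libraries overlapped. In the tamoxifen libraries F3 came first (2420 normalized counts per kilobase), before Plat (1449), F2r (969), Pros1 (878), Tfpi (640), Thbd (417), Plau (300), Procr (292) and F8 (11.1). Among these, F2r overlapped Pros1, Thbd overlapped Plau and Plau overlapped Procr, so that their order was not resolved. The order depended on the transcript chosen. With canonical transcripts Tfpi came before Procr in the control libraries, without overlap. In the tamoxifen libraries F3 then overlapped Plat, Tfpi came before F2r and Pros1, and Thbd no longer overlapped Plau.

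The 9 genes were then set against the endothelial markers in the same library, as log2 of the gene minus the mean log2 of the 12 markers, each with 1 added to the normalized count. The marker mean was 16.25 in the controls and 13.22 in the tamoxifen libraries, a difference of -3.03. All 9 genes stood higher relative to the markers in both tamoxifen libraries than in either control, but so did 95.1% of all tested genes, and nothing about the 9 is read from this count. The median difference relative to the markers was 3.08 over all tested genes and 2.84 over the 9. No test is given for these differences, since each is the gene's log2 fold change minus the marker difference of -3.03. Their order is therefore that of the fold changes already given.

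Of the 9, Thbd kept closest to the markers. Against their mean it stood at -2.51 and -2.62 in the control libraries and at -2.19 and -2.35 in the tamoxifen libraries, a difference of 0.29 on the log2 scale. For the other genes that fell, the same difference was 1.17 for Plat, 1.62 for Procr and 1.74 for Pros1. Tfpi (2.84) and F8 (3.53), which were not called, came next. F2r (5.33), Plau (5.76) and F3 (7.29) were farthest away, and in tamoxifen library 2 F3 reached the marker mean (0.03), from values of -8.35 and -8.09 against it in the controls.

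**Figure D3:**
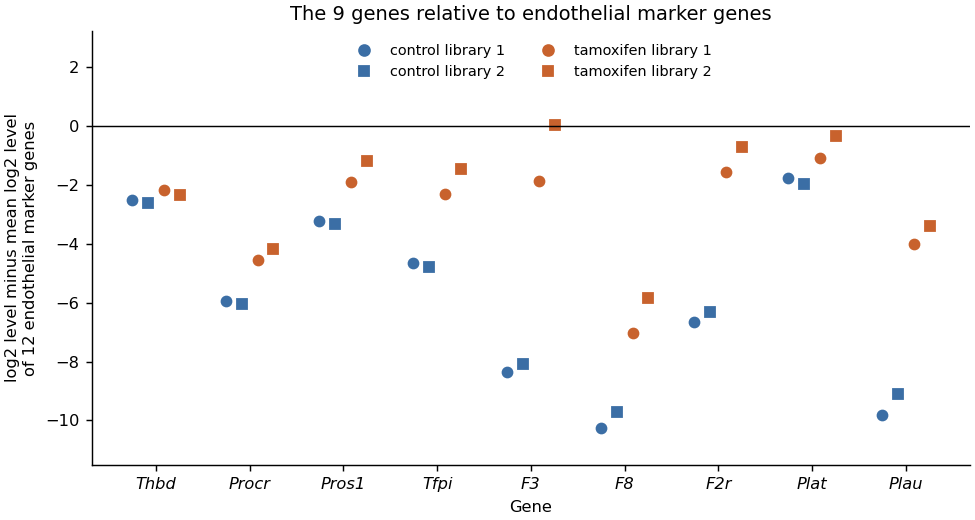
Log2 level of each of the 9 genes minus the mean log2 level of 12 endothelial markers in the same library, with a point for each of the 2 control and 2 tamoxifen libraries. Of the 9, Thbd shows the smallest difference between the groups (0.29) and F3 the largest (7.29), beside a median of 3.08 over all tested genes.

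Many tested markers of other cell types were called higher in the tamoxifen libraries, beside 28.6% of all tested genes. The lists of pericytes and smooth muscle and of hepatocytes came nearest to that share. A marker with few control reads could pass the minimum mean of 10 normalized counts only through the tamoxifen libraries. Of the tested markers, those called higher were 8 of 8 for astrocytes, 8 of 8 for fibroblasts, 10 of 10 for neutrophils, 7 of 7 for megakaryocytes and platelets, 7 of 10 for microglia and macrophages, 6 of 8 for neurons, 4 of 10 for pericytes and smooth muscle, and 2 of 5 for hepatocytes. The summed level of the astrocyte list was 30327 to 36376 normalized counts in the control libraries and 151030.0 to 311951 in the tamoxifen libraries. That of the fibroblast list went from between 2337 and 3341 to between 60832 and 70436, and that of the neutrophil list from between 300.4 and 331 to between 83660 and 112581. Those of megakaryocytes and platelets went from between 403 and 698 to between 2653 and 3397, and those of microglia and macrophages from between 1608 and 2990.1 to between 4852 and 5556.

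The neuron list went from between 1297 and 1677 to between 10878 and 19410.3 normalized counts, the hepatocyte list from between 50.7 and 73.8 to between 193 and 229, and the pericyte and smooth muscle list from between 26158 and 45747 to between 35903 and 67973, where the groups overlapped. Pluripotency markers were called higher in 8 of 8 cases, beside 28.6% of all tested genes. Their sum was 79.4 to 115 in the controls against 42750.0 to 54965 after tamoxifen. Markers this low in the controls could pass the filter through the tamoxifen libraries, so this count depends in part on the filter. Of 7 tested extraembryonic endoderm markers, 6 were called higher and Sox7 lower, beside 28.6% and 16.0% of all tested genes. The median log2 fold change of this list was 5.53. The sum of this list was 7487 to 8556 in the controls against 5426 to 6774 after tamoxifen. Only 1 marker of the list had a control mean of at least 100 normalized counts, so the lower sum does not describe the 6 that rose. Of the markers with values, only Dpt, a fibroblast marker, was at 0 in both controls, and none was at 0 in both tamoxifen libraries. The megakaryocyte and platelet list and the hepatocyte list each had values for 7 of 8 markers. Astrocytes are a known source of F3, and fibroblasts and macrophages of F2r and Plau. The part of such cells in the values of these genes was not tested.

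The pair of tamoxifen libraries differed from each other, and the genes followed this difference unequally. Tamoxifen library 2 held 0.456 times the normalized count of tamoxifen library 1 for Thbd, a ratio within the range of the endothelial markers (0.435 to 0.611, median 0.490). The ratios of Procr (0.663), Plau (0.785), Pros1 (0.826), Plat (0.856), Tfpi (0.914), F2r (0.931) and F8 (1.16) were above that range. F3 had the highest ratio of the 9, at 1.92. The astrocyte markers had a median ratio of 1.999 (range 1.23 to 2.49), pericyte and smooth muscle markers 1.94 (range 0.702 to 2.42) and neuron markers 1.66 (range 0.875 to 3.94), so that the ratio of F3 lay within the ranges of all 3 lists. Medians of the other lists were 1.06 for hepatocytes, 0.905 for fibroblasts, 0.851 for extraembryonic endoderm, 0.841 for microglia and macrophages, 0.796 for megakaryocytes and platelets, 0.769 for pluripotency and 0.715 for neutrophils. These ratios rest on 1 pair of libraries and carry no test.

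**Figure D4:**
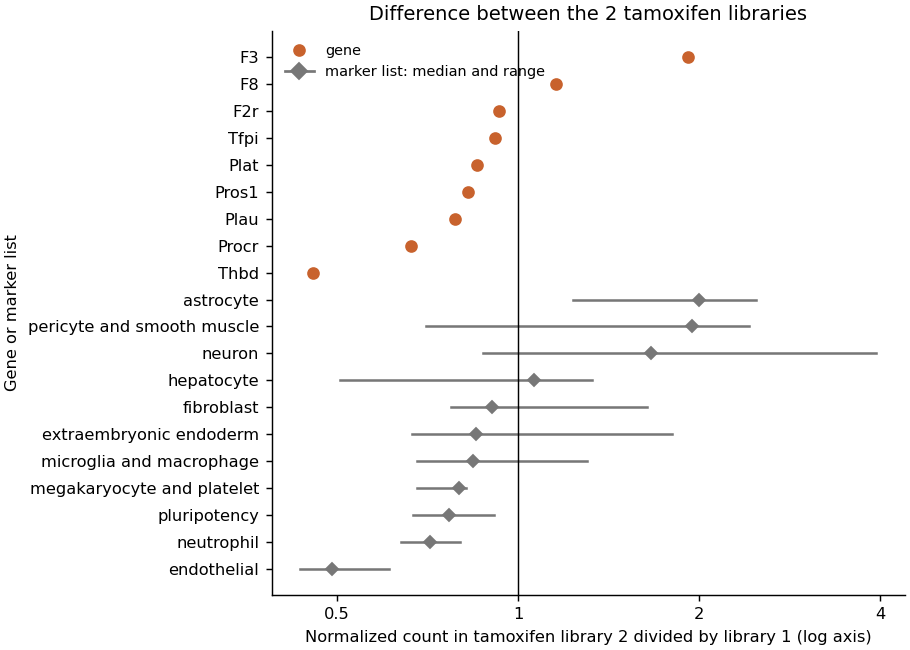
Normalized count in tamoxifen library 2 divided by that in tamoxifen library 1 (log axis), for the 9 genes as circles and for the marker lists as a median with the range over the list's genes. Thbd (0.456) lies within the range of the endothelial list and F3 (1.92) within those of the astrocyte, pericyte and smooth muscle, and neuron lists.

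The other genes of coagulation and fibrinolysis gave the surroundings of the 9. Of 46 such genes on the list, 34 were in the table and 30 were tested, of which 8 were called lower, 9 higher and 13 not called. These stand beside backgrounds of 16.0% lower and 28.6% higher, and the median log2 fold change of the 30 was -0.11, beside 0.05 over all tested genes. Of the 9 called higher, Proz and Serpinb2 passed the minimum mean of 10 normalized counts only through the tamoxifen libraries. The count of higher calls thus depends in part on the filter. The other 12 genes, Plg (plasminogen) among them, were not analysed here.

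Around the protein C pathway, Gas6, a relative of protein S that activates TAM receptors, had 8020 and 8067 normalized counts in the controls against 5081 and 4089 after tamoxifen. Its log2 fold change of -0.82 had an adjusted p under the threshold but did not reach the size limit (limma, BH-adjusted p = 0.00421). Proc, which encodes protein C and is made mainly by the liver, had no read in either control library and 10 and 7 reads in the tamoxifen libraries. Its tamoxifen mean was 2.02 times a floor of 3 reads per control library, without an allowance for counting error in the 10 and 7 reads. Proc was too low to be tested.

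Among 7 tested inhibitors of coagulation proteases, 3 were called lower and 1 higher, beside 16.0% and 28.6% of all tested genes. Anxa5, a phospholipid-binding protein with anticoagulant action, was at 9684 and 11153 normalized counts in the controls against 4270.2 and 3730.4 after tamoxifen (log2 fold change -1.38, limma, BH-adjusted p = 0.000299). Hs3st1, an enzyme that makes the heparan sulfate that binds antithrombin, fell with a log2 fold change of -1.77, from 2053 and 2194 to 764 and 503. Tfpi2, a Kunitz-type inhibitor related to Tfpi, fell from 151 and 124 to 28.2 and 23.0 (log2 fold change -2.38). Serpine2, protease nexin 1, was at 9169 and 10551 in the controls against 6882 and 8164 after tamoxifen and was not called (limma, BH-adjusted p = 0.0900). Proz, the gene of protein Z, was the one called higher, from 8 and 2 reads in the control to 26 and 78 in the tamoxifen libraries, and is named after its values were seen.

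Of 6 tested coagulation factors, 2 were called lower and 2 higher, beside 16.0% and 28.6% of all tested genes. F5, the cofactor that activated protein C cuts, fell from 2444 and 2492 to 1104 and 1295 normalized counts, just past the size limit (log2 fold change -1.04). F7, the partner of tissue factor, was also called lower, at 50 and 44 reads in the controls against 13 and 9 after tamoxifen, and is named after its values were seen. F10 (log2 fold change 2.99) and F13a1 (5.07), the factor X gene and the gene of the fibrin cross-linking enzyme, rose. F13a1 had 9.59 and 40.1 normalized counts in the controls against 796 and 613 after tamoxifen, and it is a known product of macrophages and platelets. F2, prothrombin, was at 38.4 and 27.5 in the controls against 55.3 and 48.2 after tamoxifen and was not called.

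In the group of 4 genes that carboxylate or export the factors, 1 was called lower, beside 16.0% of all tested genes. This was Mcfd2, which helps factors V and VIII leave the endoplasmic reticulum (log2 fold change -1.04). Its partner Lman1 had a log2 fold change of -0.07, with overlapping groups. Ggcx, the vitamin K-dependent carboxylase that modifies protein C and protein S, had a log2 fold change of -0.99, just inside the size limit, and Vkorc1 one of -0.52. Vwf, von Willebrand factor, the carrier of factor VIII, fell from 113256 and 129773 to 23800.1 and 12469 normalized counts (log2 fold change -2.82, limma, BH-adjusted p = 0.000334).

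Among the 3 tested relatives of F2r, 2 were called higher, beside 28.6% of all tested genes. F2rl1, which encodes PAR2, rose from 61.6 and 80.1 to 2389 and 2061 normalized counts (log2 fold change 4.96, limma, BH-adjusted p = 9.67e-06). F2rl2, the gene of PAR3, rose from 6.85 and 30.04, which were 5 and 24 reads, to 206 and 139 (log2 fold change 3.45). F2rl3, the gene of PAR4, was at 32.9 and 41.3 in the controls against 69.4 and 47.4 after tamoxifen and was not called.

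Of 5 tested genes for receptors of plasminogen and its activators, 1 was called lower and 2 higher, beside 16.0% and 28.6% of all tested genes. Plaur, the receptor that binds the Plau product, was at 1130.0 and 640 normalized counts in the controls against 907 and 647 after tamoxifen, so that the groups overlapped (log2 fold change -0.15). Anxa2, part of the endothelial receptor for Plat and plasminogen, also overlapped (log2 fold change -0.21), whereas its partner S100a10 rose from 427 and 527 to 3389 and 2697 (log2 fold change 2.67). Lrp1, the receptor that clears activators bound to their inhibitors, rose with a log2 fold change of 2.94, and Plgrkt, a plasminogen receptor, fell with one of -1.24.

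Of 3 tested inhibitors of fibrinolysis, 2 were called higher, beside 28.6% of all tested genes. Serpinb2, 1 of these 2, could be tested only because it was high in the tamoxifen libraries. A2m, a broad protease inhibitor, rose from 46.6 and 82.6 to 1262 and 1757 (log2 fold change 4.56). Serpinb2, a serpin that inhibits urokinase, rose from 0 and 1 reads to 55 and 58 reads. Its tamoxifen mean was 12.9 times a floor of 3 reads per control library. Serpini1, neuroserpin, was at 122 and 151 in the controls against 206 and 321 after tamoxifen and was not called (limma, BH-adjusted p = 0.0557).

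**Figure D5:**
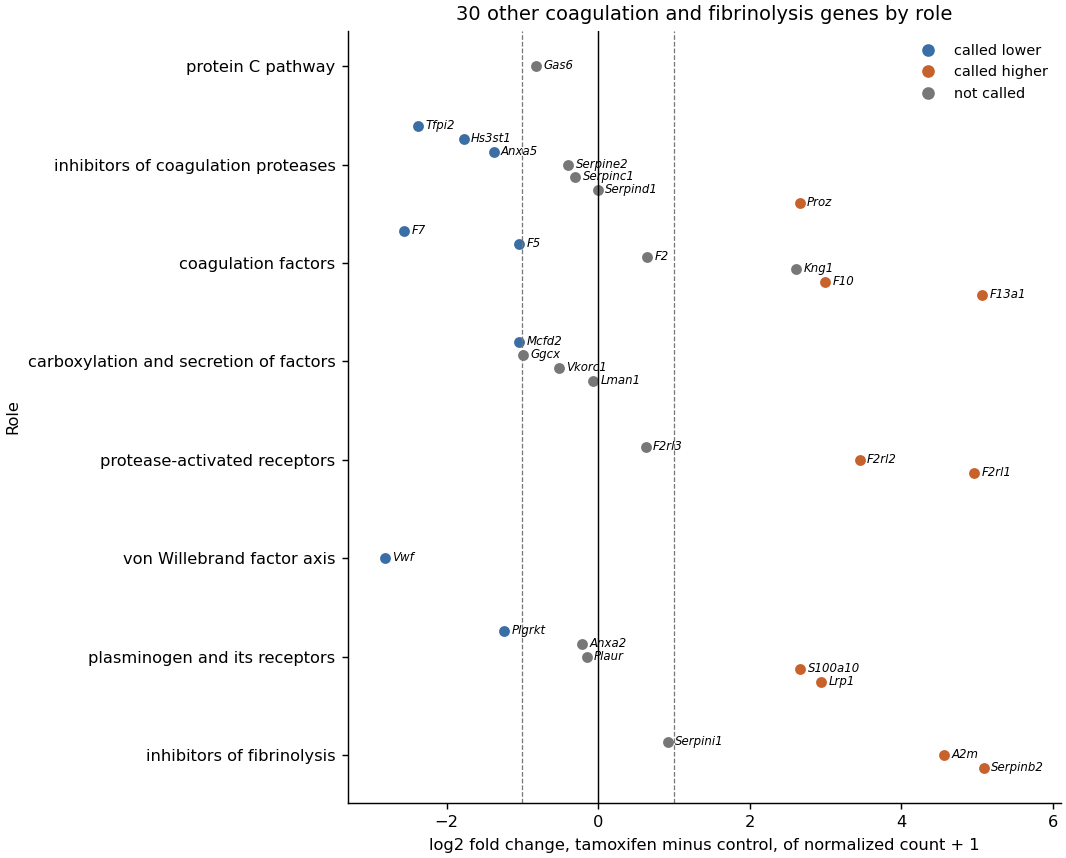
Log2 fold change, tamoxifen minus control, of the 30 tested coagulation and fibrinolysis genes other than the 9, grouped by role, with colours for genes called lower (8), called higher (9) and not called (13). Vwf has the lowest value (-2.82), and the plotted value of Serpinb2, at or under 3 reads in both controls, depends on the 1 added before the log.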

How the data were processed

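RNA was sequenced from brain cells of 2 control and 2 tamoxifen libraries. The authors aligned reads to GRCm39 with STAR 2.7.10a, counted them, removed low genes and normalized with DESeq2 1.36.0. The annotation release, strand setting and low-count limit are not given in the sources used here. What they deposited is a signal for each gene: the authors divided its reads by 1 factor per library, and 100% of them came back as whole reads (tolerance 0.01 reads). The kit was stranded, but if counting ignored strand, reads of genes that overlap on opposite strands (Thbd with Sstr4, F8 with Fundc2, and F3, Pros1 and Plau with noncoding genes) cannot be told apart. The columns are named by letters, C taken to mean control and A to mean AVM, the malformation that follows tamoxifen. The labels give no A, and the assignment was made from the letters.

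limma 3.58.1 (R 4.3.3) was fitted to log2(normalized count + 1), which understates folds of low genes, with a variance trend and a minimum mean of 10, with Benjamini-Hochberg (BH) adjustment over all of them. With 3 mice pooled per library and 2 libraries per group, p-values measure the spread between pools. Depth sets a floor of 3 reads, which covers counting error only. Fits with edgeR 4.0.16 and DESeq2 1.42.0 to the recovered reads were alternatives. The fit was tested on simulated data. Gene locations and transcript lengths came from GENCODE M39, and promoters from RefSeq. Named genes were the 9, and of the pathway list up to 4 per role by mean level, with Plaur, Vwf and Plg added, and 1 gene of the list is not reported here. The 9 genes, the pathway and marker lists and the tests were chosen with earlier results of these data known.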

Additional observations from a re-analysis of the deposited data

How the results depend on the processing

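Alternatives changed the pseudocount (0.5 or 5), the filter (none, or a mean of 100), the normalization (3 others), the variance trend or the test (edgeR, DESeq2), added a replicate block, or left out a library, and for counts used the adjusted p alone. Thbd, Procr, Pros1, F3, F2r and Plat kept their direction and an adjusted p under 0.05 in all 15, and Plau in 13, losing it without either tamoxifen library. Scaling to equal totals moved the median of all genes by 0.47 and quantile normalization by -0.25 (log2). Equal totals left 1838 genes lower (3284 in the report), 2 of the 9 genes lower in place of 4 and 4 pathway genes lower in place of 8, and turned Tfpi to 0.28 (-0.23 relative to the median of all genes, limma, BH-adjusted p = 0.100). Quantile normalization gave 5276 genes lower and turned F8 to -0.66 (-0.46 relative to the median, limma, BH-adjusted p = 0.189). The adjusted p alone gave 5228 genes lower. The filter at 100, which tests fewer genes, left 3540 genes higher (5867 in the report) and 5 pathway genes higher in place of 9. With a library left out, 1594 to 3537 genes were lower, 2553 to 6163 higher and, of the pathway genes, 5 to 9 lower and 5 to 10 higher. The lowest counts came without tamoxifen library 2 (1594 and 2553) and tamoxifen library 1 (1994 and 3030), which leave that group with 1 library, assumed to vary like the controls. The replicate block gave 3461 genes lower and 6064 higher. The numbers did not pair the samples, since deviations of same-numbered libraries correlated at 0.0251 over 20485 genes. DESeq2 gave 3045 lower and 5694 higher, and edgeR 3377 and 5864.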
